A study of Homo sapiens with 8 samples.

Results

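The transcription factors that direct the megakaryocyte and erythroid lineages were followed here across 8 RNA sequencing libraries of SET-2 cells. The genes are GATA1, GATA2, TAL1, RUNX1, FLI1, NFE2, GFI1B, LMO2, MYB and ZFPM1. They were taken by symbol as 10 of the 25435 gene symbols in the deposited table, by a rule that names no measured value. The list was chosen with earlier results of these data known. All 10 passed the filter on low counts. SET-2 is a human megakaryoblastic line from an essential thrombocythemia that had turned into leukemia, and it carries an activating JAK2 mutation that every group shares. Cells received a CRISPR guide against ZRSR2, which encodes a protein of the minor spliceosome, or a non-targeting guide. Each genotype had 4 libraries, made from guides 1 and 2 in experiment 1 and again in experiment 2. RNA was taken on day 20 after transduction for biological replicate 1 and on day 25 for biological replicate 2, and the experiment number was read as that replicate number. Experiment and day therefore cannot be told apart. Non-targeting guides 1 and 2 are separate controls and are not paired with the ZRSR2 guides of the same number. All libraries come from 1 cell line, so p-values measure the spread between these cultures. Each experiment was run once. For experiment 2 against experiment 1 the p-values therefore measure the spread among libraries within an experiment, and not between repeats of an experiment.

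GATA1 and GATA2 are zinc finger proteins that bind GATA sites in DNA. GATA2 acts in stem and progenitor cells and in mast cells, and GATA1 drives erythroid and megakaryocyte maturation, largely together with its cofactor ZFPM1, also called FOG1. TAL1 joins the GATA factors on DNA through LMO2, a bridging protein. RUNX1 and the ETS factor FLI1 support megakaryocytes, NFE2 activates late platelet genes, GFI1B represses transcription in both lineages, and MYB maintains dividing progenitors.

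Promoter sequences are printed for RUNX1, GFI1B and ZFPM1, whose levels differed most between the experiments, and for TAL1, whose level differed least but whose promoter holds the DNA letters recognised by the GATA factors. The RefSeq table of build GRCh38.p14 matched 7 of the 10 genes, with 10 entries of 300 bases, from 250 bases before the start site to 50 after it. The sequences are printed 5′ to 3′ on the gene's strand. Capitals mark the letters of a GATA site, which are AGATAA or AGATAG, or else TGATAA or TGATAG, on either strand.
GFI1B first promoter, chr9:132945281-132945580, plus strand: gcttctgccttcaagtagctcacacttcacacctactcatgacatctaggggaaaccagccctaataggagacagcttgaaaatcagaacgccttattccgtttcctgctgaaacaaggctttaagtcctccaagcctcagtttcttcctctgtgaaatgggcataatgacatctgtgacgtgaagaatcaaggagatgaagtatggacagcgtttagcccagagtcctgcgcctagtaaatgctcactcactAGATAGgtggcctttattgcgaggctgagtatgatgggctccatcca
GFI1B second promoter, chr9:132978444-132978743, plus strand: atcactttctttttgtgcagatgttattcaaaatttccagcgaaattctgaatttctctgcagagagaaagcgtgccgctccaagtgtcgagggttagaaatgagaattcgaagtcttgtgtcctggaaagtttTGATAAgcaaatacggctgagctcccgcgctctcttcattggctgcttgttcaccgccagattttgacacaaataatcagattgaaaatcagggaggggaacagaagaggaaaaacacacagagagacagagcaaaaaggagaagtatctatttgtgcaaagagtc
TAL1 first promoter, chr1:47232286-47232585, minus strand: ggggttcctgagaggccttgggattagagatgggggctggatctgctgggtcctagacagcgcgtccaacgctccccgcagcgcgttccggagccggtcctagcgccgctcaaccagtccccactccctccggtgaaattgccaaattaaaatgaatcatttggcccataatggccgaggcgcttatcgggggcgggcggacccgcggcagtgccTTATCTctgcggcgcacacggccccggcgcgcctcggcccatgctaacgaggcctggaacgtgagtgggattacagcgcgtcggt
RUNX1 promoter, chr21:34888650-34888949, minus strand: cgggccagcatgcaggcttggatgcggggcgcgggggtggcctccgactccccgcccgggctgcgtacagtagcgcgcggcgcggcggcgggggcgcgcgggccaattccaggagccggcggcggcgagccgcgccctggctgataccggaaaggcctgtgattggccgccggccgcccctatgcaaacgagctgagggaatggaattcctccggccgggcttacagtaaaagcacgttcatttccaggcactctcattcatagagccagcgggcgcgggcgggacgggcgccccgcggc
ZFPM1 promoter, chr16:88453030-88453329, plus strand: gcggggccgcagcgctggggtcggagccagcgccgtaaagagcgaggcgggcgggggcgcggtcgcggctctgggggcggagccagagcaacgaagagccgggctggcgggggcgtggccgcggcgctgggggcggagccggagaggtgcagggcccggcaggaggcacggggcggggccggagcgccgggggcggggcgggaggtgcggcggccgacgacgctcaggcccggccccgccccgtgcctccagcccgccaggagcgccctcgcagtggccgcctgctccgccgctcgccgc

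These letters were present in 25.0% of all 35116 promoter entries of the table, and in 3 of the 10 entries matched here. In the first TAL1 promoter they began at position −35 relative to the start site, on the strand opposite to that of the gene, so that the printed letters read TTATCT. In the GFI1B promoters they began at position −116 in the second entry and at 4 in the first. RUNX1, ZFPM1, GATA1, MYB, both entries of GATA2 and the second entry of TAL1 held no match in these windows. The second TAL1 entry held 3 copies of TGTGGT, the letters bound by RUNX factors, and this motif was in 13.1% of all promoters counted on both strands. CCGGAA, an ETS motif that would be read by FLI1, was found in the first TAL1 promoter and the RUNX1 promoter and in 17.2% of all promoters. The ZFPM1 promoter was the richest of the 10 in G and C, at 83% against a median of 58.7% over all entries, and held 7 copies of GGGCGG. Both GFI1B promoters were below that median, at 47.3% and 42.3%. A match describes the letters in the window and does not show binding.

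All 10 genes were well expressed. Levels are given in counts per 1000000 (CPM) after scaling by the trimmed mean of M values, and their counts ran from 2765 to 94140 per library, so that counting error was at most 1.90% of a value. Dividing by the length of the principal transcript, GATA2 was highest at 455 ± 60.4 CPM per kb (SD, n = 8). NFE2 and GATA1 followed at 193 ± 8.11 and 176 ± 15.8 CPM per kb, and their libraries overlapped. LMO2 at 101 ± 17.5 and MYB at 94.9 ± 11.6 CPM per kb also overlapped, and TAL1 lay below both at 73.5 ± 2.76. RUNX1 and GFI1B had 55.1 ± 12.5 and 53.5 ± 11.8 CPM per kb, and FLI1 and the cofactor ZFPM1 had the lowest levels per kb, at 28.8 ± 4.17 and 21.0 ± 4.61. RUNX1 overlapped with GFI1B, and FLI1 with ZFPM1, while the other neighbours in this order did not overlap. The order depends on the transcript taken, since with the shortest coding transcript MYB would have 298, ZFPM1 226 and RUNX1 216 CPM per kb.

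**Figure D1:**
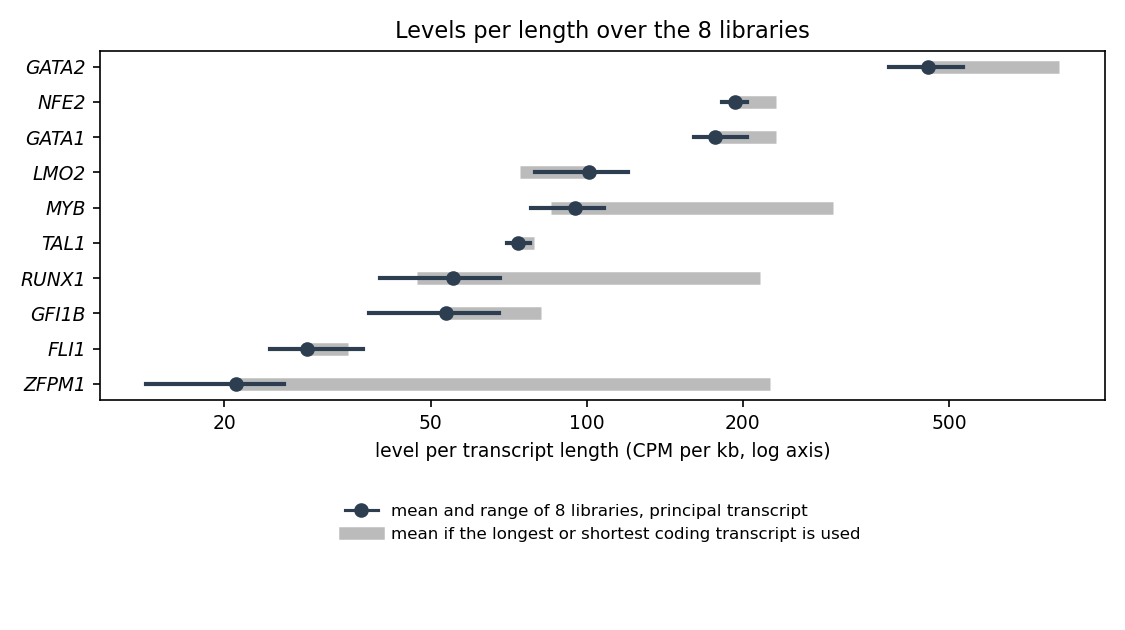
Mean level per transcript length of each gene over the 8 libraries, in CPM per kb on a log axis; dark bars span the lowest to highest library and grey bars the mean under the longest or shortest coding transcript. GATA2 had the highest level per kb, 455, and ZFPM1 the lowest, 21.0, with the principal transcripts, and the grey bars of MYB, RUNX1 and ZFPM1 reach above 200.

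In the GENCODE 29 annotation of GRCh38, a different build from the hg19 used for the counts, GATA1 lies on X:48786554-48794311 and overlaps no other gene. GATA2 lies on 3:128479427-128493185, with an antisense gene, GATA2-AS1, on the other strand. TAL1 lies on 1:47216290-47232220, LMO2 on 11:33858576-33892289, RUNX1 on 21:34787801-36004667 and FLI1 on 11:128686535-128813267. NFE2 lies on 12:54292111-54301121, GFI1B on 9:132944000-132991687, MYB on 6:135181315-135219173 and ZFPM1 on 16:88453317-88537016. In all, 9 of the 10 genes overlap another annotated gene, for example MYB with MYB-AS1 and GFI1B with TSC1. Whether the counting used strand is not given in the sources used here, so reads of a gene and an overlapping antisense gene cannot be told apart.

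Library totals ran from 31106042 to 71521173 expected counts. ZRSR2 itself was at 37.9 and 39.2 CPM with the non-targeting guides of experiment 1 and at 39.7 and 41.1 in experiment 2, against 29.4 and 22.9 CPM with ZRSR2 guides 1 and 2 of experiment 1 and 28.3 and 18.7 in experiment 2. The knockout libraries averaged 62.9% of the controls with no overlap (two-sided exact permutation p = 0.0286, the smallest that 4 against 4 allows), so transcript remained in every library. The labelled lineage was checked with marker genes. Megakaryocyte markers were at 5 CPM or more for 6 of 7 genes, erythroid markers for 8 of 8, stem and progenitor markers for 2 of 2, and mast cell and basophil markers for 4 of 5. Several lineages thus reached that level, so the check does not single out the megakaryocyte lineage. PF4 was the megakaryocyte marker below it, at 1.10 to 3.03 CPM. Of the further megakaryocyte genes taken up below, GP1BB was at 0 in all libraries, and PPBP, F13A1 and TREML1 were under 1 CPM in each. Of the granulocyte and monocyte list, 3 of 9 reached 5 CPM, while MPO, ELANE, AZU1, PRTN3, CD14 and CSF1R were under 1 CPM. T cell markers reached it in 0 of 5, all under 1 CPM, fibroblast markers in 0 of 4, and B cell markers in 1 of 5, with MS4A1 and EBF1 listed at 0 in all libraries.

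The experiments differed in 6 of the 10 genes, and RUNX1, GFI1B, ZFPM1, LMO2 and MYB fell while FLI1 rose in experiment 2 against experiment 1. The test was edgeR's quasi-likelihood test with Benjamini-Hochberg adjustment over 14898 genes, and a call means an adjusted p under 0.05. By the same rule 58.2% of all genes were called, 29.6% higher and 28.6% lower, so that 6 of 10 is near the share of all genes. The median log2 change of the 10 genes was −0.25, against 0.0035 over all genes tested, and the median absolute change was 0.27 against 0.37. None of the 10 changed by 2-fold or more. In 5 of the 10 the libraries of the experiments did not overlap, against 56% of all genes tested. In bulk RNA fewer cells of a type and less RNA per cell cannot be told apart.

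RUNX1, which supports megakaryocyte and stem cell programmes, had the largest drop among the 10. In experiment 1 it was at 423 and 408 CPM with non-targeting guides 1 and 2 and at 412 and 415 CPM with ZRSR2 guides 1 and 2. In experiment 2 it was at 263 and 281 CPM in the controls and at 249 and 289.9 CPM in the knockouts. Every library of experiment 2 was below every library of experiment 1, whatever the genotype. The means were 415 ± 6.21 and 271 ± 18.4 CPM (SD, n = 4 each), and RUNX1 fell by 0.62 on the log2 scale (SE 0.07, edgeR adjusted p = 3.45e-05).

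GFI1B, the repressor, had 166 and 159 CPM in the controls of experiment 1 and 151 and 146 CPM in the knockouts. In experiment 2 the controls had 115 and 93.3 CPM and the knockouts 93.1 and 124 CPM. The experiments did not overlap, and the second was the more spread. The means were 156 ± 8.67 and 106 ± 15.5 CPM (SD, n = 4 each), a fall by 0.55 (SE 0.10, edgeR adjusted p = 7.68e-04). The GATA letters printed above for this gene lie in promoters of 2 start sites, and gene-level counts do not separate them.

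ZFPM1, the cofactor of GATA1, was at 140.2 and 138 CPM in the controls and at 120.2 and 134 CPM in the knockouts of experiment 1. In experiment 2 it was at 103 and 76.0 CPM in the controls and at 81.2 and 114 CPM in the knockouts. The experiments did not overlap, though knockout guide 2 of experiment 2 was close to knockout guide 1 of experiment 1. ZFPM1 fell by 0.51 (SE 0.12, edgeR adjusted p = 0.00382), from 133 ± 8.91 to 93.4 ± 17.8 CPM (SD, n = 4 each).

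LMO2, the bridge between TAL1 and the GATA factors, had 193 and 199 CPM in the controls and 202 and 193 CPM in the knockouts of experiment 1. Its levels in experiment 2 were 134 and 147 CPM in the controls and 135 and 158 CPM in the knockouts, all below experiment 1. LMO2 had a log2 change of −0.45 (SE 0.07, edgeR adjusted p = 3.67e-04), with means of 197 ± 4.61 and 144 ± 11.1 CPM (SD, n = 4 each). TAL1, the helix-loop-helix factor that LMO2 joins, lay between 351 and 388 CPM in experiment 1 and between 356 and 385 CPM in experiment 2. Its experiments overlapped, at 368 ± 16.8 and 367 ± 12.7 CPM (SD, n = 4 each), and the log2 change was −0.0044 with a 95% interval for the fold of 0.909 to 1.09.

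MYB, the progenitor factor, had 339 and 329.9 CPM in the controls and 357 and 348 CPM in the knockouts of experiment 1. In experiment 2 it had 258 and 317 CPM in the controls and 259 and 299.7 CPM in the knockouts. The libraries did not overlap, with guide 2 above guide 1 in both genotypes of experiment 2. MYB fell by 0.28 (SE 0.08, edgeR adjusted p = 0.0130), from 343 ± 11.6 to 283 ± 29.8 CPM (SD, n = 4 each). The call was lost without non-targeting replicate 1 (guide 1 of experiment 1, adjusted p = 0.0550) or without knockout replicate 3 (guide 1 of experiment 2, adjusted p = 0.0630).

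FLI1, the ETS factor, was the gene that rose. It was at 101 and 107 CPM in the controls and at 109 and 114 CPM in the knockouts of experiment 1, and at 109 and 153 CPM in the controls and 124 and 134 CPM in the knockouts of experiment 2. The experiments overlapped, since non-targeting guide 1 of experiment 2 lay within the range of experiment 1. The log2 change was 0.27 (SE 0.10, edgeR adjusted p = 0.0367), from 108 ± 5.21 to 130 ± 18.3 CPM (SD, n = 4 each). The call was lost on leaving out any of 7 of the 8 libraries and was kept only without non-targeting replicate 3, which is guide 1 of experiment 2. Without non-targeting replicate 4, guide 2 of experiment 2, the change was 0.13.

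GATA1 and GATA2 did not pass the threshold, and their values lay on opposite sides of 0. GATA1 had 252 and 253 CPM in the controls and 248 and 241 CPM in the knockouts of experiment 1, and 306 and 271 CPM in the controls and 249.6 and 294 CPM in the knockouts of experiment 2. The change was 0.17 (SE 0.07, edgeR adjusted p = 0.0684), and the groups overlapped through knockout guide 1 of experiment 2. GATA2 had 1760.2 and 1708 CPM in the controls and 1794 and 1337 CPM in the knockouts of experiment 1, and 1342 and 1474 CPM in the controls and 1287 and 1541 CPM in the knockouts of experiment 2. Knockout guide 2 of experiment 1 was far below the other libraries of that experiment and inside the range of experiment 2. The change of GATA2 was −0.22 (SE 0.10, edgeR adjusted p = 0.0650). NFE2, the activator of late platelet genes, lay between 338 and 364 CPM in experiment 1 and between 334 and 373 CPM in experiment 2, and its change was 0.03 (SE 0.06, edgeR adjusted p = 0.710).

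**Figure D2:**
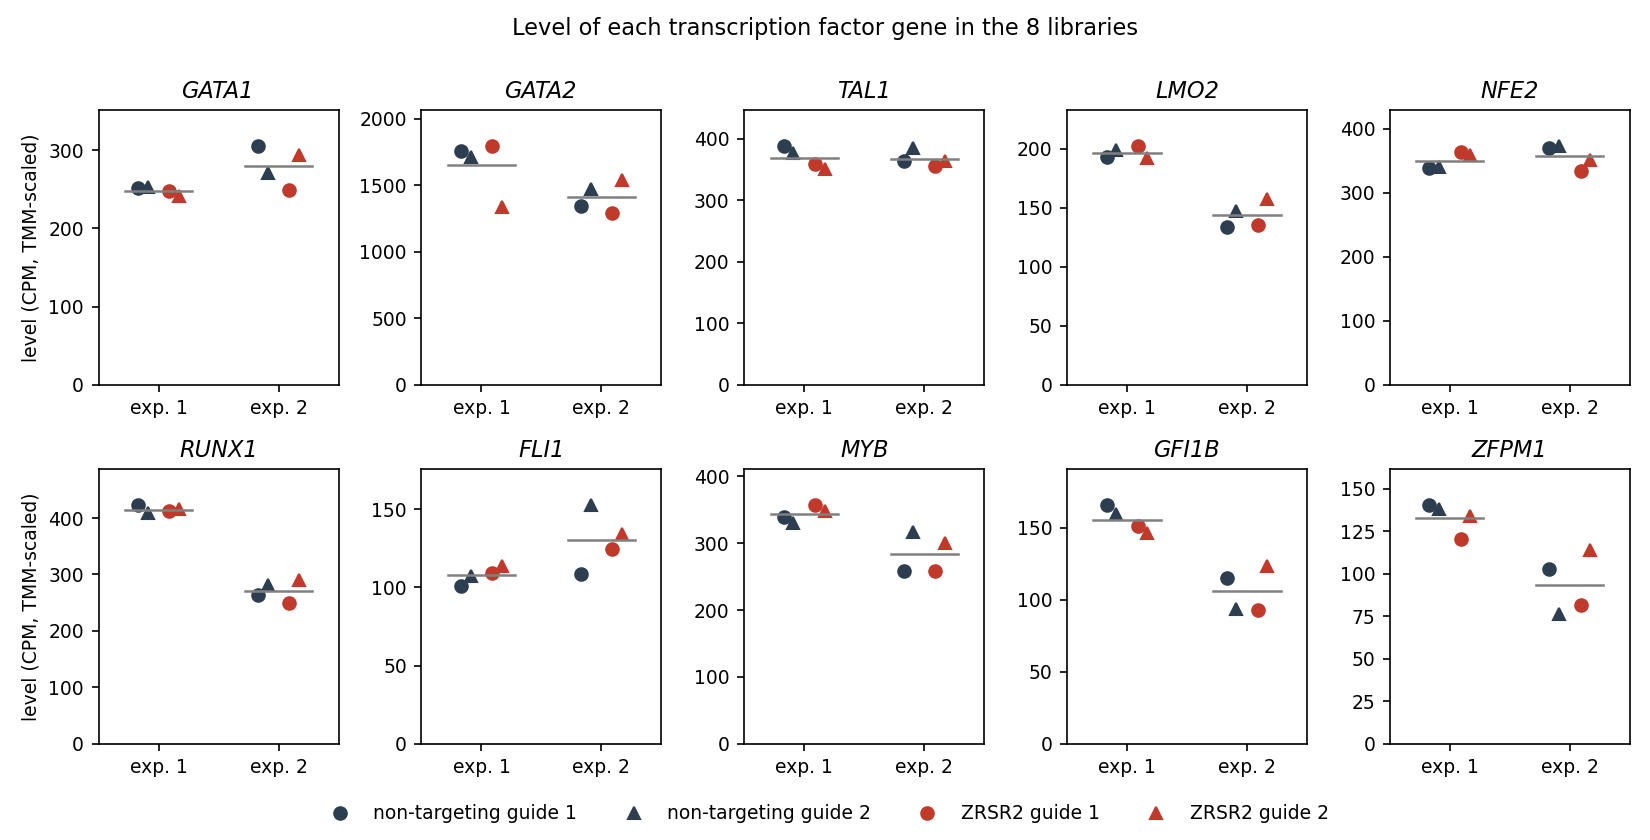
Level of each gene in CPM (linear axis from 0) in the 4 libraries of each experiment, one panel per gene; points are single libraries, colour is genotype, marker shape is guide, and lines are the means of the experiment. RUNX1, GFI1B, LMO2, MYB and ZFPM1 have every point of experiment 2 below experiment 1, and TAL1 and NFE2 stay level.

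Ratios between factors that act in turn or together were computed within each library, after their values were seen, as 6 tests. The ratio of GATA1 to GATA2, which rises when GATA1 replaces GATA2 during normal maturation, was 0.138 to 0.180 in experiment 1 and 0.184 to 0.228 in experiment 2. Its means were 0.152 ± 0.0190 and 0.199 ± 0.0196 (SD, n = 4 each), a 1.31-fold difference with no overlap (two-sided exact permutation p = 0.0286, adjusted 0.0857). GATA1 to its cofactor ZFPM1 went from 1.88 ± 0.125 to 3.05 ± 0.405 (SD, n = 4 each), 1.62-fold, with the same exact permutation p of 0.0286 and adjusted 0.0857. The p of 0.0286 is the smallest that 4 against 4 libraries can give, and neither ratio passed after adjustment. KLF1 to FLI1, an erythroid against a megakaryocyte factor, was 3.47 ± 0.261 and 3.16 ± 0.810 (SD, n = 4 each, exact permutation p = 0.429).

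Between knockout and control, 0 of the 10 genes were called by edgeR, as were 0% of all genes. At an unadjusted p under 0.05 there were 0 of the 10 and 89 of all genes. Blocking on experiment left 0 of the 10 called by edgeR, beside 0% of all genes and 690 at unadjusted p. DESeq2 with the block called 0 of the 10 and 0.208% of all genes. ZRSR2 itself, at a log2 change of −0.67, was not called by edgeR without the block (adjusted p = 0.9999) or with it (adjusted p = 0.275). It was called by DESeq2 with the block (adjusted p = 5.38e-04). The edgeR fits thus also missed the gene that the guides target. The controls and knockouts overlapped in all 10 genes, against 0.678% of all genes that did not overlap. Taken within each experiment, 0 of the 10 were separate in both experiments in the same direction, against 5.73% of all genes.

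The estimates were small for every role. GATA1 averaged 270.4 ± 25.0 CPM in the controls and 258 ± 24.1 CPM in the knockouts (SD, n = 4 each), and GATA2 averaged 1571 ± 197 and 1489.7 ± 230.5 CPM. TAL1 had the lowest log2 change, −0.08, with 378 ± 11.2 CPM in the controls and 357 ± 5.20 CPM in the knockouts, and its libraries overlapped. FLI1 had the highest, 0.04, with 117 ± 23.7 and 120.3 ± 11.1 CPM. With the block, the 95% intervals of the fold over the 10 genes ran from 0.827, the lower bound of GATA2, to 1.19, the upper bound of ZFPM1. Without the block they ran from 0.682 for GFI1B to 1.41 for RUNX1, since the difference between experiments then counts as spread.

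**Figure D3:**
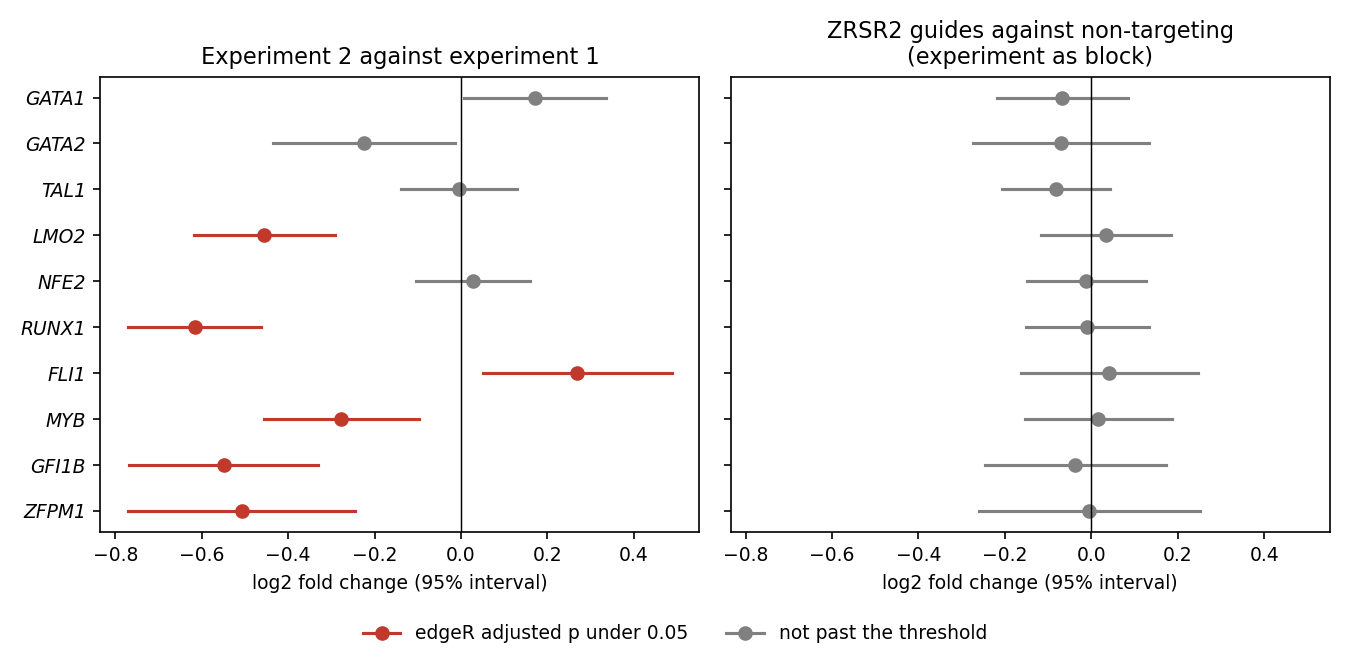
Log2 fold change of each gene with its 95% interval, for experiment 2 against experiment 1 and for knockout against non-targeting with the experiment as a block; red marks an edgeR adjusted p under 0.05. For the experiments 6 genes are red, from −0.62 for RUNX1 to 0.27 for FLI1, and for the knockout none is and every interval spans 0.

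Within experiment 1 the knockout effect of the 10 genes ran from −0.15 for GATA2 to 0.10 for FLI1, and within experiment 2 from −0.11 for NFE2 to 0.12 for ZFPM1. By edgeR, 0 of 10 were called in either experiment, beside 0% of all genes, while 305 and 645 genes had an unadjusted p under 0.05. The difference of the effects was tested as an interaction and called 0 of 10, beside 0% of all genes and 248 at unadjusted p. It ran from −0.21 for NFE2 to 0.25 for ZFPM1.

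The guides were compared in the same way, with 2 libraries for each ZRSR2 guide. ZRSR2 guide 1 against the controls gave −0.18 for ZFPM1 to 0.0046 for LMO2, and guide 2 gave −0.13 for GATA2 to 0.12 for ZFPM1. Neither comparison called any of the 10 by edgeR, beside 0% of all genes, while an unadjusted p under 0.05 was found for 18 and 60 genes, or for 410 and 749 with the experiment as a block. Guide 2 against guide 1 of ZRSR2, and non-targeting guide 2 against guide 1, also called 0 of 10 beside 0% of all genes, with 27 and 13 at unadjusted p, or 376 and 482 with the block. With the experiment as a block, ZFPM1 was higher with ZRSR2 guide 2 than with guide 1 by 0.32 (unadjusted p = 0.0308, edgeR adjusted p = 1.00), and FLI1 was higher with non-targeting guide 2 than with guide 1 by 0.29 (unadjusted p = 0.0285, edgeR adjusted p = 0.930). Blocking on experiment left 0 of the 10 called by edgeR in each of these comparisons, beside 0.0671% of all genes for ZRSR2 guide 2 against the controls, ZRSR2 among them, and 0% for the others. DESeq2 with the block also called 0 of the 10 in each, beside 0.0268% of all genes for ZRSR2 guide 1 and 0.262% for guide 2 against the controls, 0.0134% for guide 2 against guide 1 and 0% for the non-targeting guides.

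The 10 genes also varied among libraries of 1 experiment. In 8 of 10 the coefficient of variation was larger in experiment 2, and GATA2 and TAL1 were the exceptions. This was not counted over all genes, so it is not shown to be particular to the 10. In experiment 2, ZFPM1 and GFI1B were low in knockout guide 1 and non-targeting guide 2 and high in knockout guide 2 and non-targeting guide 1. FLI1 ran from its lowest in non-targeting guide 1 to its highest in non-targeting guide 2, and had 124 and 134 CPM with ZRSR2 guides 1 and 2. Base composition moved in the same libraries. Of the 14898 genes tested, 93.1% had a GC content, and the median centred log2 level of the 2775 genes of highest GC was −0.09 and −0.08 in the libraries where ZFPM1 was low and 0.07 and 0.12 where it was high. The 2775 genes of lowest GC had 0.11 and 0.14 against −0.02 and −0.09. From ZRSR2 guide 1 to guide 2 their median thus went from 0.11 to −0.02, while FLI1 was higher in guide 2. MYB, at 43.9% GC, was also higher there, at 259 and 299.7 CPM in guides 1 and 2. In the controls FLI1 and MYB were higher in guide 2, as these genes were, with MYB at 258 and 317 CPM. The transcript of ZFPM1 has the highest GC of the 10, 69.0%, that of GFI1B 56.4% and that of FLI1 45.9%. Some of the 10 had another order in experiment 2. GATA2 and LMO2, at 59.7% and 55.5% GC, had 1342 and 134 CPM in non-targeting guide 1 and more, 1474 and 147 CPM, in guide 2. With the ZRSR2 guides both were higher in guide 2 than in guide 1, as ZFPM1 was. GATA1, at 60.85% GC, had the order of ZFPM1. It was at 306 and 271 CPM in non-targeting guides 1 and 2 and at 249.6 and 294 CPM in ZRSR2 guides 1 and 2. With each gene's GC taken into the fit, an alternative chosen after seeing the data, ZFPM1 fell by 0.52, GFI1B fell by 0.53 and FLI1 rose by 0.28 between experiments, and GATA1 was called as well at 0.19 (edgeR adjusted p = 0.00716). That fit called 7 of the 10, beside 63.4% of the 13873 genes it held. The part of GC in the spread within experiment 2 was not tested.

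**Figure D4:**
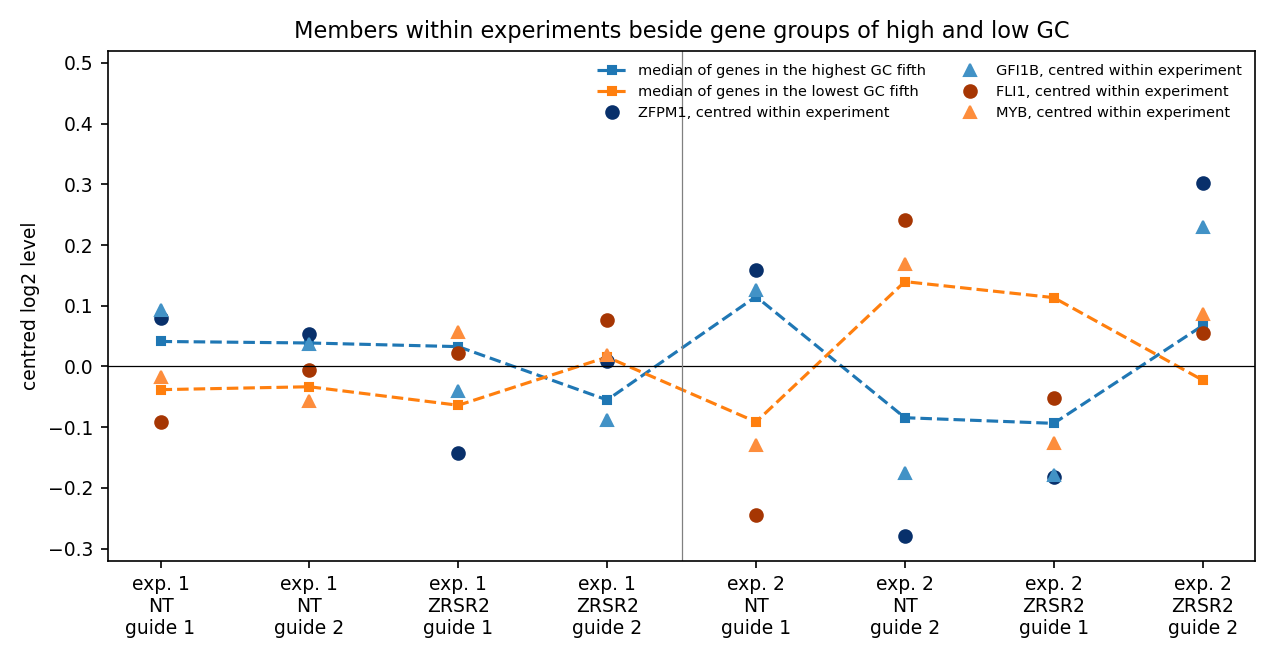
Centred log2 level of ZFPM1, GFI1B, FLI1 and MYB in each library, centred within the experiment, beside the medians of the 2775 genes of highest and the 2775 of lowest GC content, centred over the 8 libraries. In experiment 2, ZFPM1 and GFI1B lie low where the median of the GC-rich genes is −0.09 and −0.08 and high where it is 0.07 and 0.12.

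The genes of most similar pattern were found by the root mean square difference of centred log2 CPM over the 8 libraries, among 11004 genes with a mean of at least 5 CPM. For RUNX1 these were C16orf54 at 0.0353, KIF3B at 0.0386 and FAM168B at 0.0417, against a median over genes of 0.335. For GFI1B they were TPRA1 at 0.0414, CAPN15 at 0.0442 and WDR90 at 0.0444. For ZFPM1 they were PLEC at 0.0757, TPRA1 at 0.0799 and LRFN4 at 0.0809. The measure takes in the step between the experiments together with differences within them, and these were not compared separately. The closest of 11004 genes were picked by this measure, so values far below the median follow from the choice.

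The RNA of genes whose proteins work with the 10 factors moved in both directions between the experiments. Of 23 partner genes, 15 were called by edgeR, 4 higher and 11 lower, with a median log2 change of −0.12. That is 65.2% of the list called, beside 58.2% of all genes. HDAC1, a histone deacetylase, fell by 0.94, from 117 ± 8.37 to 60.7 ± 9.15 CPM (SD, n = 4 each). CHD4, the ATPase of the NuRD complex that ZFPM1 recruits, fell by 0.70, from 1036 ± 35.8 to 636 ± 53.0 CPM. MAFK, a small MAF protein that pairs with NFE2, fell by 0.56. CBFA2T2 rose by 0.55, TCF4, a helix-loop-helix partner of TAL1, by 0.53, and LMO4 by 0.39.

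Of 13 tested relatives of the 10 genes, 5 were called, 2 higher and 3 lower, which is 38.5% beside 58.2% of all genes. NFE2L3 rose by 0.92 where NFE2 had a change of 0.03, and RUNX3 fell by 0.73 beside RUNX1. GFI1, the relative of GFI1B, fell by 0.53, and LYL1, the relative of TAL1, had −0.44 where TAL1 had −0.0044. Of 23 other blood transcription factors tested, 15 were called, 8 higher and 7 lower, with a median of −0.0066, which is 65.2% called beside 58.2% of all genes. EGR1 rose by 0.89, ETS1 by 0.83 and STAT5B by 0.72, while SRF fell by 1.06 and MECOM fell from 33.8 ± 0.964 to 15.7 ± 1.98 CPM (SD, n = 4 each).

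Genes that these factors are known to regulate were called at a share near that of all genes, 66.7% of the erythroid and of the megakaryocyte list beside 58.2%. Of 27 erythroid genes, 18 were called, 14 higher and 4 lower, with a median of 0.22, beside 29.6% of all genes higher and 28.6% lower. HBB, the adult beta globin gene, rose by 1.40, from 13.1 ± 2.12 to 34.7 ± 9.40 CPM (SD, n = 4 each), and HBE1, an embryonic globin gene, rose by 1.35. TFRC, the transferrin receptor, fell by 0.44 and HBA1 fell by 0.35. HBA1 shares near-identical sequence with HBA2, so its count is uncertain. Of 21 megakaryocyte genes tested, 14 were called, 8 higher and 6 lower, with a median of 0.09. TUBB1, a platelet tubulin, rose by 1.28 and CD9 by 0.82. THBS1 fell by 1.89, the collagen receptor gene GP6 fell by 1.87, and GP5 fell by 1.69.

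**Figure D5:**
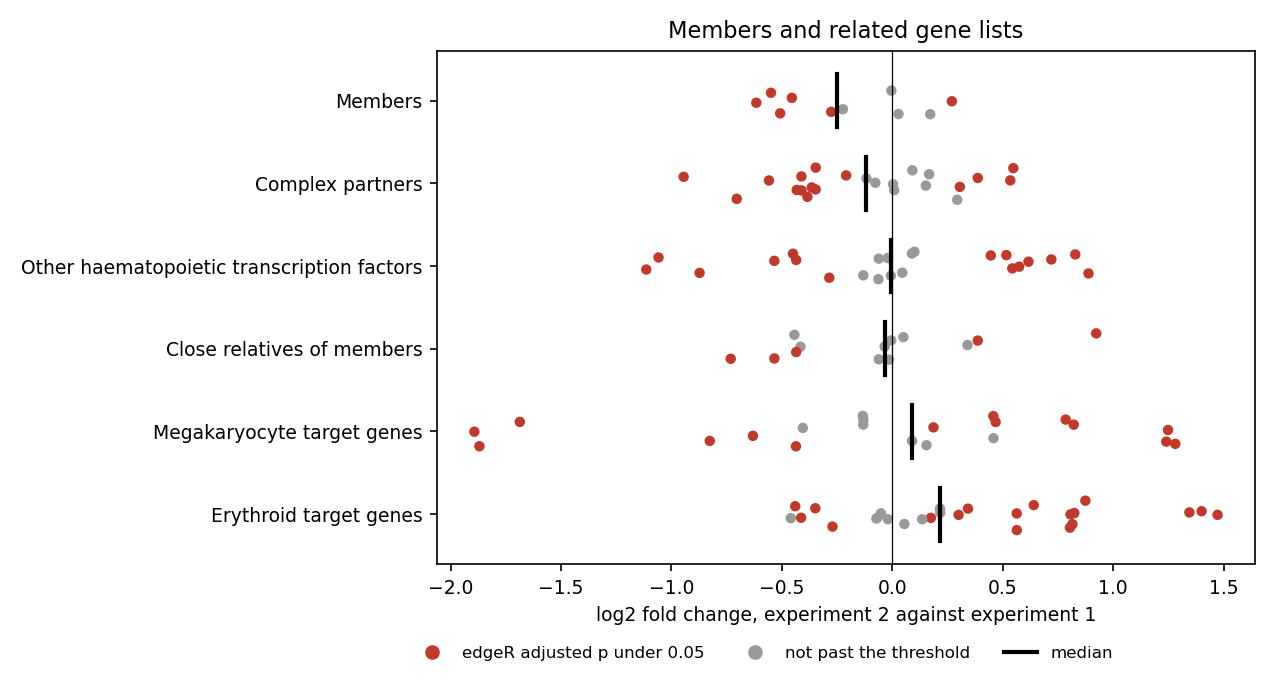
Log2 fold change of experiment 2 against experiment 1 for each tested gene of the 10 factors and of 5 related lists; points are genes, coloured where the edgeR adjusted p was under 0.05, and bars are medians. The median is −0.25 for the 10 factors and 0.22 for the erythroid genes, and the megakaryocyte genes spread from −1.89 to 1.28.

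Marker sums for cell types moved between the experiments too. The 8 erythroid markers summed to 1165 to 1309 CPM in experiment 1 and 1318 to 1956 CPM in experiment 2, and the 7 megakaryocyte markers to 2513 to 2731 and 2662 to 3361 CPM. The 2 stem and progenitor markers summed to 996 to 1015 and 1304 to 1792 CPM, and the 5 mast cell and basophil markers to 1583 to 1876 and 1902 to 2347 CPM. The mast cell and basophil sum was not the direction of most of its genes: HDC rose by 0.69, while FCER1A fell by 0.43, TPSAB1 fell by 0.61 and MS4A2 fell by 1.48, and CPA3 had 0.15 without passing the edgeR threshold. Of the erythroid markers 4 were called higher and 2 lower, of the megakaryocyte markers 4 higher and 1 lower, and of the stem and progenitor markers 1 higher. The 9 granulocyte and monocyte markers summed to 377 to 409 and 461 to 557 CPM, and the 5 B cell markers to 12.6 to 14.2 and 36.9 to 54.3 CPM. The 5 T cell markers stayed below 1 CPM in sum and the 4 fibroblast markers between 3.51 and 5.13 CPM. The part of these shifts in the levels of the 10 factors was not tested.

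In the knockout comparison, 0 genes of each related list were called by edgeR. The erythroid genes had a median log2 change of −0.11, and 26 of 27 were lower in the knockouts, against 51.3% of all genes tested. They were measured in the same 8 libraries, so their directions are not independent. The list was not tested as a set. At an unadjusted edgeR p under 0.05 there was 1 of the 27, or 4 with the experiment as a block. Some differed widely between non-targeting guides 1 and 2 of experiment 2. HBG1 had 305 and 170 CPM there, and TFRC had 721 and 1430 CPM. The smallest unadjusted p of the erythroid genes belonged to SLC4A1, the red cell anion exchanger, with a change of −0.41 (unadjusted p = 0.00182, not past the edgeR threshold). DESeq2 with the block called it (adjusted p = 0.00252), as the only erythroid gene. Among the partners MAFF had −0.36 and LDB1, which bridges LMO2 complexes, −0.14. GP1BA had −0.14 and VWF −0.53 among the megakaryocyte genes, and SPI1 had −0.14 and EGR1 −0.49 among the other factors, none past the edgeR threshold.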

How the data were processed

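The authors deposited RSEM expected counts per gene symbol for 8 mRNA libraries. RSEM 1.2.30, cutadapt 1.11 and build hg19 are named per the submitters' processing notes. The aligner, annotation and strand setting are not given in the sources used here. The deposited expected counts were already whole numbers, so rounding changed 0 values. Totals ran from 31106042 to 71521173. Every pair of libraries in a group differed by more than counting noise (chi-square over degrees of freedom at least 2.99).

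Counts were filtered with filterByExpr, scaled by the trimmed mean of M values and tested with edgeR 4.0.16 (quasi-likelihood) in R 4.3.3, with Benjamini-Hochberg adjustment over 14898 genes. Knockout was fitted on genotype alone. Experiment, within-experiment and difference terms came from a model of the 4 genotype and experiment groups, and guides from a model of the 4 guides. DESeq2 1.42.0, other normalisations and filters, a replicate block and leaving out each library were alternatives. The scripts were tested on simulated data.

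The experiment number was used as the replicate block. The protocol ties biological replicate to extraction day, and deviations from group means correlated at 0.678 to 0.846 in same-experiment pairs and at −0.816 to −0.709 in the others.

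All 10 genes were described. Of each related list, up to 3 called genes per direction with the largest change between experiments and a mean of at least 5 CPM were named, and up to 2 of smallest p for the knockout. Some genes that this rule names are not reported here. The members and lists were chosen with earlier results of these data known. Annotation was GENCODE 29 (GRCh38), and promoters came from RefSeq.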

Additional observations from a re-analysis of the deposited data

Results flagged for a closer look

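Of 48 groups of 4 values examined, 3 had a value far from the other 3 by Dixon's test, which chance gives in about 1 in 20 groups. GATA1 in the knockout libraries was 294 CPM in replicate 4 (guide 2 of experiment 2), against 241 to 249.6 CPM in the others. FLI1 in the non-targeting libraries was 153 CPM in replicate 4 (guide 2 of experiment 2), against 101 to 109 CPM in the others. The total of non-targeting replicate 3 (guide 1 of experiment 2) was 71521173 expected counts, against 31106042 to 36544665 in the other controls.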

How the results depend on the processing

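Over 38 results and 524 alternatives, 468 were scored as the same as the main fit. For a single test this means the same direction and the same call. A count of called genes was scored as the same when it was near the main count, so 4 of 10 was scored as the same as 6. Many of the 38 were results on the knockout or the guides, where the main edgeR fits called 0 genes. The same call says little there. With the replicate block, or with DESeq2, the knockout called 0 of the 10 genes, and the block changed no call on a member. RUNX1, GFI1B, LMO2 and ZFPM1 stayed called between experiments in all 8 fits that left out a library, and 4 to 6 of the 10 were called in those fits. Reversals were all of values near 0. TAL1 between experiments was 0.0002 with no filter, 0.0057 with a filter of 10 counts and 0.0241 with the GC offset. For the knockout, NFE2 was 0.0006 with the GC offset and 0.0025 with the GC offset and replicate block, and ZFPM1 was 0.0426 and 0.0572. Leaving out a library gave TAL1 −0.0307 to 0.0191 between experiments. For the knockout it gave RUNX1 −0.1175 to 0.1187, FLI1 −0.0316 to 0.1993, NFE2 −0.0357 to 0.0240, GFI1B −0.1801 to 0.0762, LMO2 −0.0644 to 0.1318, MYB −0.0580 to 0.1079 and ZFPM1 −0.1668 to 0.1045, in fits where the genotypes were then unequal between experiments. GATA1 was called between experiments with the GC offset, with experiment as the only term (edgeR adjusted p = 0.0450), and without knockout replicate 3 or non-targeting replicate 4, and its change was 0.11 to 0.23 over the fits that left out a library. GATA2 was called with no filter (edgeR adjusted p = 0.00576), with experiment as the only term (adjusted p = 0.0498), and without knockout replicate 2 or 4, at −0.32 to −0.11. The ratio of GATA1 to GATA2 had an exact permutation p of 0.0571 whenever a library of experiment 2 was left out. At 4 libraries a group the number of libraries, not the depth, limits the precision.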
